A study of Mus musculus with 6 samples.

Results

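The mitochondrial ribosomal proteins studied here are the members of the Mrpl (large subunit) and Mrps (small subunit) gene families, measured in mouse heart after feeding with a high fat diet (HFD) or a normal diet (ND). Members were the probes other than control spots whose gene name on the array begins with Mrpl or Mrps followed by a digit. They number 101 probes for 76 genes, out of 55681 probes and 36163 gene names on the array, with 62 probes for 47 large subunit genes and 39 probes for 29 small subunit genes. RNA came from heart tissue of male C57BL/6 mice that started either diet at 4 weeks of age and stayed on it for 4 months. In the HFD 60% of the kcal came from fat, the ND was a standard chow, and the labels name no transgene in either group. Each diet had 3 samples, called ND 1 to ND 3 and HFD 1 to HFD 3, each on its own Agilent 1-colour (Cy3) array. The labels number the samples within a diet and do not say which animal each came from, so the p-values below measure the spread between these samples. Levels are the log2 of a probe's processed intensity after subtraction of the 75th percentile of its array, so that they compare hearts for 1 probe and not 1 probe with another. A difference is HFD minus ND on this log2 scale, given with its standard error (SE) from limma, a linear model that shares the spread over all probes.

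Mitochondria keep a small genome of their own, and its messenger RNAs, which encode core subunits of the respiratory chain and of ATP synthase, are read by a ribosome inside the organelle. The RNAs of this mitoribosome come from the mitochondrial genome, but all of its proteins are encoded in the nucleus, made in the cytosol and imported. The small subunit binds the messenger and decodes it, and the large subunit forms the peptide bond and releases the chain through an exit tunnel that faces the inner membrane. Heart muscle is rich in mitochondria, and inherited defects of several mitoribosomal proteins, MRPL3, MRPL44 and MRPS22 among them, cause cardiomyopathy in children.

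Sequences of 5 probes are printed first, because their positions on mm9 (the build of the array's annotation) span an intron, so that each 60-base probe matches the joined ends of neighbouring exons of a spliced messenger. Of the 101 member probes, 14 (4 of the large and 10 of the small subunit) lie across such a span, and those printed were chosen among them after their values were seen. They are given 5′ to 3′ in lower case with no base singled out. The Mrps5 probe lies at chr2:127426599-127427149 on the plus strand and the Mrps35 probe at chr6:147009999-147019119 on the plus strand. The Mrps11 probe lies at chr7:85933622-85935544 on the plus strand, the Mrpl15 probe at chr1:4766862-4767644 on the minus strand, and the Mrpl47 probe at chr3:32629104-32630111 on the minus strand. The intron bases skipped number 491 for Mrps5, 9061 for Mrps35, 1863 for Mrps11, 723 for Mrpl15 and 948 for Mrpl47. Which probes lie in coding sequence and which in untranslated regions was not analysed here.
Mrps5: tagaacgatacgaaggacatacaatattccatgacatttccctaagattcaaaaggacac
Mrps35: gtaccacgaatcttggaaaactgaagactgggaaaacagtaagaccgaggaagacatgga
Mrps11: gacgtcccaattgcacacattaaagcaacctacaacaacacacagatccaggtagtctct
Mrpl15: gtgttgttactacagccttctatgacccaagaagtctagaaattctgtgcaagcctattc
Mrpl47: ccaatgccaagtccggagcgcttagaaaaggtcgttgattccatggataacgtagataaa

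Promoter sequences of 3 members follow, since several factors known to act on nuclear genes for mitochondrial proteins read short motifs near the start of transcription. The windows are RefSeq's on GRCm38.p6 and run from 250 bases before to 50 bases after the start. Capitals mark a match to a motif on either strand, namely the short cores CCGGAAG for ETS factors such as GABP, ATGGCGG for YY1, and TGCGCA for NRF1. Mrps27 and Mrpl11 are described below with their levels, and the window of Mrps11 overlaps in part with that of another member. The Mrps27 window (chr13:99344536-99344835, plus strand) holds an ETS and a YY1 match, the Mrpl11 window (chr19:4962056-4962355, plus strand) an NRF1 match, and the Mrps11 window (chr7:78782881-78783180, plus strand) a YY1 match. Windows of other members that hold no match are named further below.
Mrps27: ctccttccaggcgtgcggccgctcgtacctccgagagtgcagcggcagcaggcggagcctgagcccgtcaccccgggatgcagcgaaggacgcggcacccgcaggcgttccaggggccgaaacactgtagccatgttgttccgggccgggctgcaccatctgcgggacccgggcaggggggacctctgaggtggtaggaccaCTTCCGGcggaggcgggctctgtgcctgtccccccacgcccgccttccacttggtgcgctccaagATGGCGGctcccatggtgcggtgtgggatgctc
Mrpl11: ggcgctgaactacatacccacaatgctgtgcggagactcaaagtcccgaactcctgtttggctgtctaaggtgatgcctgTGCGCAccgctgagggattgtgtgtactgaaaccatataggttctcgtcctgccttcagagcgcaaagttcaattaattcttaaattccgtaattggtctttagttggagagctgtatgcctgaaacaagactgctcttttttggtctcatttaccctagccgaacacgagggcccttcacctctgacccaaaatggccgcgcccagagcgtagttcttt
Mrps11: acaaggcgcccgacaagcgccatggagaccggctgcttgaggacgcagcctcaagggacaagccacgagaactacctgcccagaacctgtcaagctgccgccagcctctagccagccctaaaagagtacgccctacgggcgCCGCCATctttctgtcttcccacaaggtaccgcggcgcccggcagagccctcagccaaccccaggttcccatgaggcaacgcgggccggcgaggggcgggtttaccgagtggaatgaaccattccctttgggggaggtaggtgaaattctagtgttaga

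In the HFD hearts, probes for both subunits lay lower than in the ND hearts by a small and similar amount, and no single member passed the adjustment for multiple testing. Of the 99 members tested, 93 had a lower mean in HFD, 56 of 60 for the large subunit and 37 of 39 for the small subunit, whereas by sign alone 52.0% of all 27590 probes tested were lower. The median difference was -0.14 for the large subunit, which is 90.8% of the ND level, and -0.14 for the small subunit (90.6% of the ND level), beside -0.01 over all probes tested. Differences ran from -0.24 to 0.10, so that the lowest member stood at 84.5% of its ND level. Before adjustment, 10 large subunit probes (16.7%) and 12 small subunit probes (30.8%) were lower at a limma p below 0.05, where 6.63% of all probes tested were, and 0 were higher, where 5.24% of all probes were. After Benjamini-Hochberg adjustment over all probes tested, 0 members passed 0.05 in limma, and 4 of the 27590 probes (0.0145%) did. The smallest adjusted p of a member in limma was 0.289, for the less bright of both Mrps23 probes.

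All 3 HFD hearts lay below all 3 ND hearts for 26 large subunit probes (43.3%) and 23 small subunit probes (59.0%), where 11.1% of all probes tested did. The opposite order was found for 0 members and for 7.92% of all probes. The members were measured with a smaller error than most probes, with a median SE of 0.07 against 0.11 over all probes tested. All 99 were well above background on each of the 6 arrays. The 2 probes left out were the single Mrpl21 probe and 1 of the Mrpl9 probes, both too dim to test.

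The counts at the unadjusted threshold rested on particular hearts. Without ND 1 they were 0 of 60 large and 1 of 39 small subunit probes and without ND 2 they were 1 and 1, where 4.08% of all probes tested were lower in either fit, so that both subunits (0% and 1.67% of the large, 2.56% of the small) lay under the background. Without HFD 3 they were 0 and 3 (0% and 7.69%, where 5.52% of all probes were), under the background for the large subunit. Without HFD 1 they were 8 and 4 (background 5.81%), without HFD 2 they were 8 and 8 (background 7.60%), and without ND 3 they were 12 and 8 (background 5.99%). The medians moved less, between -0.11 and -0.16 for the large and between -0.12 and -0.17 for the small subunit. HFD 1 and HFD 2 lay on row 1 of the slide and the other 4 arrays on row 2, so that a fit with the row as a term compares HFD 3 with the ND hearts. It gave medians of -0.18 and -0.16, and counts of 5 (8.33%) and 4 (10.3%), where 4.69% of all probes tested were lower.

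Heart by heart, the median deviation of the large subunit probes from their ND means was 0.04, 0.02 and -0.06 in ND 1 to ND 3 but -0.14, -0.08 and -0.18 in HFD 1 to HFD 3. For the small subunit the medians were 0.05, 0.01 and -0.05 in the ND hearts and -0.15, -0.09 and -0.16 in the HFD hearts. The diets did not overlap for either subunit, and in both HFD 2 was the HFD heart closest to ND while ND 3 was the ND heart closest to HFD. Over all probes tested the same medians were 0.02, 0.01 and -0.02 in ND against -0.05, 0.03 and -0.01 in HFD, and these overlapped. ND 1 held the highest of the 6 values for 35 of 60 large and 25 of 39 small subunit probes. The lowest value was in HFD 3 for 29 and 20 probes and in HFD 1 for 22 and 11 probes. The 75th percentile subtracted from each array was 489, 483 and 477 intensity units in the ND hearts and 516, 453 and 544 in the HFD hearts. Among the HFD hearts the member medians were thus lowest where that percentile was highest, and its part in the result was not tested.

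**Figure D1:**
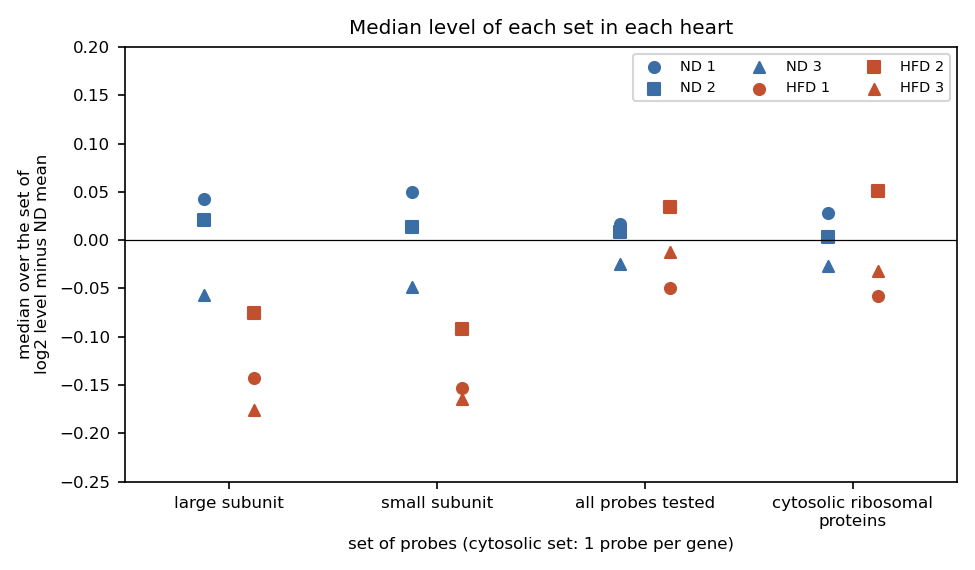
Median level of the large subunit probes, the small subunit probes, all probes tested and the cytosolic ribosomal proteins in each of the 6 hearts, as the median of log2 level minus the ND mean of each probe (vertical axis). Blue symbols are ND hearts and orange symbols HFD hearts; for both mitoribosomal subunits the 3 HFD hearts (-0.08 to -0.18) lie below the 3 ND hearts (-0.06 to 0.05), whereas for all probes and for the cytosolic set the diets overlap.

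Among the large subunit genes, named by their brightest tested probe, Mrpl55, a protein found only in mitochondrial ribosomes, was the lowest relative to ND. Its level was 6.64, 6.59 and 6.51 in ND 1 to ND 3, against 6.36, 6.38 and 6.27 in HFD 1 to HFD 3. Every HFD heart thus lay below every ND heart, and the diet means differed by -0.24 (SE 0.07, limma unadjusted p = 0.0152, Benjamini-Hochberg adjusted p = 0.311). In processed intensity, before any scaling between arrays, the same probe read 48696, 46674 and 43345 units in ND against 42304, 37776 and 41926 units in HFD. Mrpl42, also without a bacterial counterpart, stood at 5.27, 5.24 and 5.29 in ND against 5.08, 5.09 and 5.0 in HFD, a difference of -0.21 (SE 0.06). Mrpl34, whose bacterial homolog is a small RNA-binding protein, read 5.36, 5.36 and 5.33 in ND against 5.21, 5.15 and 5.11 in HFD (-0.19, SE 0.06). In these probes the gap between the closest ND and HFD hearts was wider than or similar to the range within either diet.

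The stalk of the large subunit, where translation factors dock, is built on Mrpl11, Mrpl10 and Mrpl12. Mrpl11 had levels of 5.84, 5.84 and 5.74 in ND against 5.60, 5.62 and 5.61 in HFD (-0.20, SE 0.06). Mrpl12 had levels of 6.45, 6.44 and 6.41 in ND against 6.28, 6.29 and 6.14 in HFD (-0.20, SE 0.07). Both were lower in each HFD heart than in any ND heart, whereas Mrpl10 overlapped between the diets at 3.33, 3.30 and 3.20 in ND against 3.24, 3.18 and 3.06 in HFD (-0.12, SE 0.08).

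Mrpl4, Mrpl22, Mrpl23 and Mrpl24 line the exit tunnel or its mouth, and Mrpl45 ties the mouth to the inner membrane. Mrpl4 read 6.60, 6.55 and 6.41 in ND against 6.32, 6.35 and 6.31 in HFD (-0.20, SE 0.07). Its other probe, at 4.57, 4.58 and 4.58 in ND against 4.43, 4.34 and 4.39 in HFD, differed by -0.19 (SE 0.06). Mrpl4 was the only gene of either family with more than 1 probe at an unadjusted limma p below 0.05. The other genes of this group had smaller or more variable differences and overlapped between the diets, at -0.10 (SE 0.07) for Mrpl22, -0.05 (SE 0.09) for Mrpl23, -0.17 (SE 0.09) for Mrpl24 and -0.14 (SE 0.09) for Mrpl45.

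Mrpl30, a conserved protein of the large subunit, read 6.34, 6.35 and 6.22 in ND against 6.14, 6.14 and 6.09 in HFD (-0.18, SE 0.07), and its less bright probe differed by -0.15 (SE 0.08). Mrpl41, which is specific to mitochondria, read 6.07, 6.03 and 5.96 in ND against 5.87, 5.87 and 5.82 in HFD (-0.17, SE 0.07). A much dimmer Mrpl41 probe went the other way, at -2.42, -2.35 and -2.53 in ND against -2.45, -2.34 and -2.20 in HFD (0.10, SE 0.09). For Mrpl19, a conserved protein of the large subunit, the levels of 1.90, 1.99 and 1.90 in ND against 1.85, 1.60 and 1.69 in HFD gave -0.21 (SE 0.09, limma unadjusted p = 0.0518), with HFD 1 close to the ND hearts. The catalytic centre lies near Mrpl2 and Mrpl3, and these stood at -0.15 (SE 0.07) and -0.18 (SE 0.10). Mrpl44, whose human counterpart was named above with cardiomyopathy, stood at -0.16 (SE 0.08).

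The large subunit members that did not lie lower, or barely so, were few. Mrpl28 read 4.26, 4.14 and 4.12 in ND against 4.18, 4.45 and 4.15 in HFD (0.09, SE 0.10), and its higher mean rested on HFD 2. Without HFD 2 its difference was -0.01. Mrpl48 read 5.27, 5.29 and 5.21 in ND against 5.29, 5.32 and 5.28 in HFD, a difference of 0.04 with a 95% interval from -0.11 to 0.19. Mrpl54 read 5.0, 5.0 and 4.82 in ND against 4.92, 4.92 and 4.94 in HFD, a difference of -0.01 with an interval from -0.20 to 0.17. The large subunit median of -0.14 lies inside the interval of Mrpl54 and outside that of Mrpl48. Mrpl36 (-0.02, SE 0.07), Mrpl35 (-0.03, SE 0.11), Mrpl14 (-0.04, SE 0.10), Mrpl23 and Mrpl37 (each -0.05) were the next closest to 0.

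**Figure D2:**
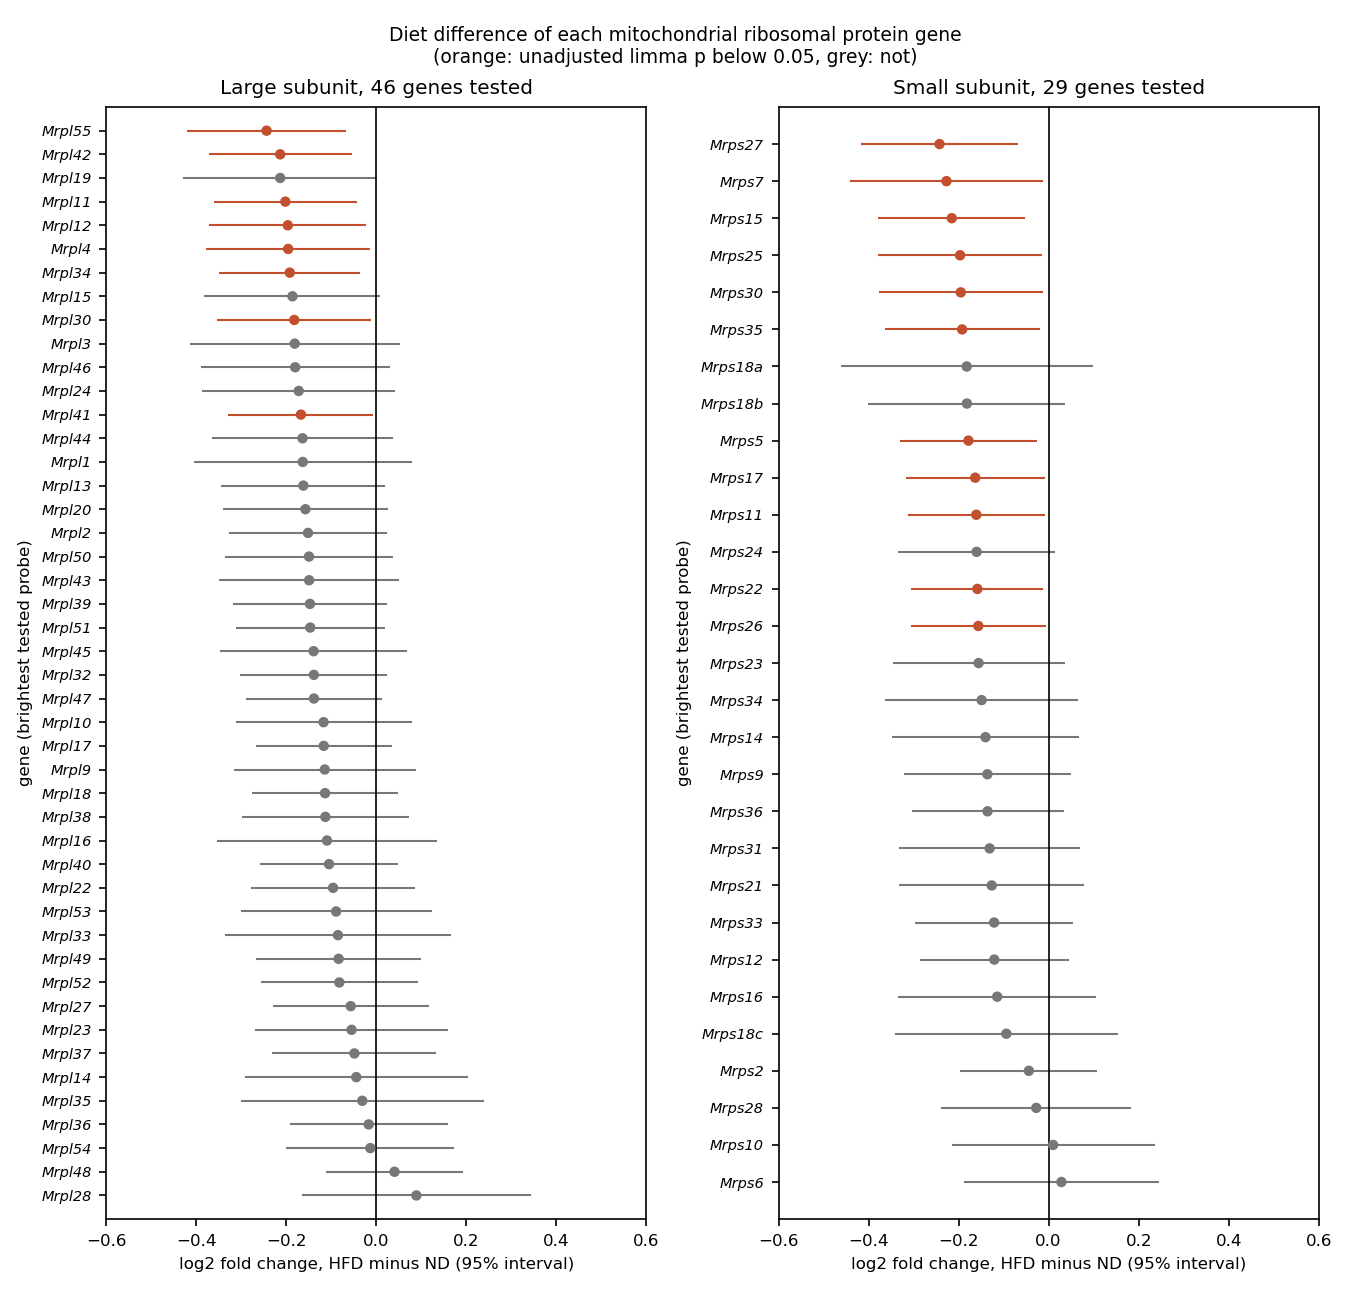
Difference of each gene between the diets, as log2 fold change of HFD minus ND at the brightest tested probe (horizontal axis; points are estimates and lines 95% intervals), for the 46 large subunit genes (left) and the 29 small subunit genes (right). Orange marks an unadjusted limma p below 0.05 (8 large and 11 small subunit genes, all lower in HFD); 44 and 27 genes lie left of 0, and 0 genes passed the adjustment over all probes.

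In the small subunit, Mrps27, an RNA-binding protein of the pentatricopeptide repeat class whose promoter is printed above, was the lowest relative to ND. It read 1.90, 1.92 and 1.88 in ND 1 to ND 3, against 1.75, 1.64 and 1.58 in HFD 1 to HFD 3, a difference of -0.24 (SE 0.07). Every HFD heart was below every ND heart, and an exact permutation test over the 20 ways of splitting the 6 samples gave a two-sided p of 0.10, the smallest that 3 against 3 allows. Any probe whose diets do not overlap gives this same value, so that it only restates the order of the hearts. The limma p was 0.0147 before and 0.307 after Benjamini-Hochberg adjustment. Its processed intensities were 1818, 1828 and 1757 units in ND against 1732, 1410 and 1630 units in HFD. Mrps15, a conserved RNA-binding protein, read 4.45, 4.46 and 4.38 in ND against 4.24, 4.24 and 4.15 in HFD (-0.22, SE 0.07). Mrps7, at the head of the subunit, read 5.36, 5.32 and 5.19 in ND against 5.03, 5.18 and 4.98 in HFD (-0.23, SE 0.09), and its dimmer probe differed by -0.16 (SE 0.07). Here the closest hearts of either diet were ND 3 and HFD 2, the same hearts that stood closest in the subunit medians.

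The intron-spanning probes of the small subunit numbered 10 and ran from -0.22, for Mrps15, to -0.08, for Mrps26. Those of Mrps15, Mrps5, Mrps35 and Mrps11 were lower at an unadjusted limma p below 0.05, whereas those of Mrps9, Mrps18b, Mrps26, Mrps31, Mrps33 and Mrps36 did not reach that threshold. In the large subunit 0 of 4 did, with differences from -0.19 (Mrpl15) to -0.05 (Mrpl37). With or without an intron, 30.8% of small and 16.7% of large subunit probes were lower at that threshold, and 6.63% of all probes tested. Mrps5, near the entry of the messenger, read 1.59, 1.65 and 1.60 in ND against 1.43, 1.41 and 1.46 in HFD (-0.18, SE 0.06). Mrps35, a mitochondria-specific protein, read 4.11, 4.11 and 4.08 in ND against 3.82, 3.94 and 3.97 in HFD (-0.19, SE 0.07). Mrps11, a conserved protein, read 2.14, 2.10 and 2.15 in ND against 2.0, 1.93 and 1.98 in HFD (-0.16, SE 0.06). For the Mrps5, Mrps35 and Mrps11 probes all HFD hearts were below all ND hearts, with limma unadjusted p-values of 0.0288, 0.034 and 0.0421 and Benjamini-Hochberg adjusted p-values of 0.365, 0.384 and 0.408.

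Mitochondria-specific proteins make up much of the small subunit's surface. Mrps22, named above for cardiomyopathy in its human counterpart, had the tightest values, at 2.84, 2.83 and 2.85 in ND against 2.69, 2.69 and 2.66 in HFD (-0.16, SE 0.06). Mrps25 read 4.99, 4.94 and 4.85 in ND against 4.73, 4.80 and 4.66 in HFD (-0.20, SE 0.07), and its dimmer probe differed by -0.13 (SE 0.07). Mrps23 had the smallest p of any member at its dimmer probe, with 3.50, 3.44 and 3.39 in ND against 3.21, 3.24 and 3.17 in HFD (-0.23, SE 0.07, limma unadjusted p = 0.0123). At its brighter probe, with 7.08, 7.02 and 6.93 in ND against 6.86, 6.93 and 6.77 in HFD, the diets touched (-0.16, SE 0.08). Mrps26 read 5.86, 5.83 and 5.79 in ND against 5.66, 5.68 and 5.67 in HFD (-0.16, SE 0.06), and its other probe differed by -0.08 (SE 0.07). Mrps11, Mrps23, Mrps26 and the other genes described beside the 24 of the naming rule were chosen after their values were seen. Mrps17, a conserved RNA-binding protein, read 4.57, 4.49 and 4.51 in ND against 4.37, 4.33 and 4.38 in HFD (-0.16, SE 0.06), with -0.13 (SE 0.07) at its other probe. Mrps12, which belongs to the decoding centre, had a smaller difference of -0.12 (SE 0.07), although it too had all 3 HFD hearts (5.49, 5.55 and 5.45) below all 3 ND hearts (5.67, 5.57 and 5.60).

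Some proteins carry an Mrps name but sit elsewhere in known structures. The Mrps30 and Mrps18a proteins are part of the large subunit, and the Mrps36 protein is now known as a component of the alpha-ketoglutarate dehydrogenase complex. They are counted with the small subunit by name. Mrps30 read 4.11, 4.15 and 4.08 in ND against 3.82, 3.98 and 3.95 in HFD (-0.20, SE 0.07). Mrps18a, at -0.18 (SE 0.11), overlapped between the diets through HFD 2. The brighter and dimmer Mrps36 probes each differed by -0.14 (SE 0.07).

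Against this, 3 small subunit genes were close to their ND level. Mrps6, next to an Mrps18 protein on the platform of the subunit, read 4.92, 4.87 and 5.0 in ND against 5.07, 4.98 and 4.82 in HFD (0.03, SE 0.09). Mrps10, in the head, read 3.60, 3.57 and 3.47 in ND against 3.52, 3.70 and 3.44 in HFD (0.01, SE 0.09). Mrps28 read 5.70, 5.58 and 5.48 in ND against 5.50, 5.65 and 5.54 in HFD (-0.03, SE 0.09). In all 3 the hearts of the diets were mixed, and the sign turned when single hearts were left out. Their 95% intervals, from -0.19 to 0.25 for Mrps6, from -0.22 to 0.24 for Mrps10 and from -0.24 to 0.18 for Mrps28, include the small subunit median.

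**Figure D3:**
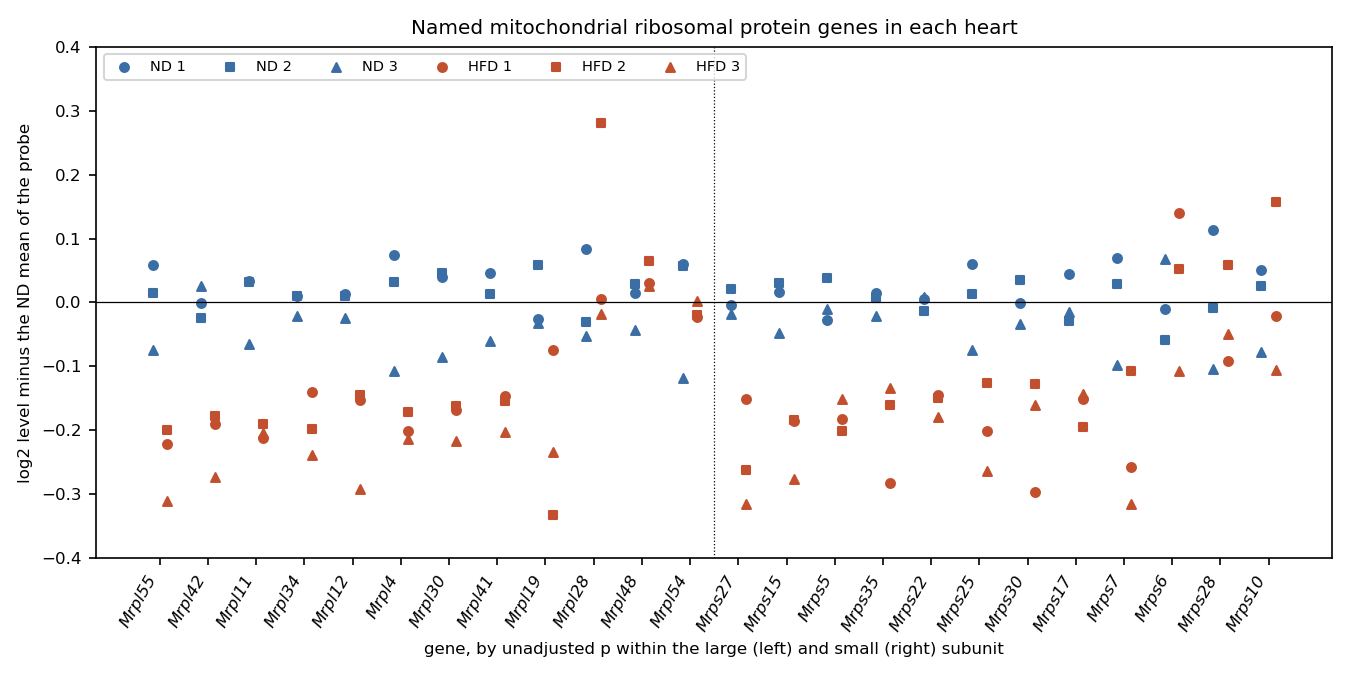
Level of the 24 named genes in each heart, as log2 level minus the ND mean of the probe (vertical axis), with large subunit genes left of the dotted line and small subunit genes right of it, ordered by unadjusted p. Blue symbols are ND and orange symbols HFD hearts; the HFD symbols lie below all ND symbols in the genes at the left of each block and mix with them in Mrpl28, Mrpl48, Mrpl54, Mrps6, Mrps28 and Mrps10.

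Probes of 1 gene share its transcripts and were not counted as replicates. In 21 of the 23 genes with more than 1 tested probe, all probes were lower in HFD. The exceptions were Mrpl41, described above, and Mrpl47, the counterpart of a bacterial protein at the tunnel exit. Its intron-spanning probe read 3.94, 3.91 and 3.89 in ND against 3.75, 3.79 and 3.78 in HFD (-0.14, SE 0.06), and its dimmer probes differed by -0.03 (SE 0.07) and 0.07 (SE 0.09). Mrpl15, a conserved protein of the large subunit, read 4.68, 4.68 and 4.49 in ND against 4.40, 4.47 and 4.42 in HFD at the intron-spanning probe (-0.19, SE 0.08), and differed by -0.10 (SE 0.07) at the other. Mrpl43, a mitochondria-specific protein, was lower at a limma unadjusted p of 0.0286 only at its dimmer probe (-0.18, SE 0.06), with -0.15 (SE 0.08) at the brighter one. When the probes of each gene were averaged, 71 of 75 genes were lower, with medians of -0.13 for the large and -0.15 for the small subunit.

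The rest of the machinery for mitochondrial translation was read from lists with 1 probe per gene, the brightest. Over all 20571 genes so reduced, 53.2% were lower in HFD, 7.01% were lower and 4.97% higher at an unadjusted limma p below 0.05, and the median difference was -0.01. On this footing the large subunit had 8 of 46 and the small subunit 11 of 29 genes lower at that threshold, with medians of -0.14 and -0.16. Proteins of the mitoribosome that carry other gene names, which the family rule does not pick, numbered 7, and all 7 were lower (median -0.19), 5 of them at the unadjusted threshold. Gadd45gip1, a large subunit protein first described as a partner of a growth arrest factor, read 5.38, 5.46 and 5.26 in ND against 5.18, 5.14 and 5.03 in HFD (-0.25, SE 0.09). Ptcd3, a pentatricopeptide repeat protein of the small subunit, read 5.89, 5.88 and 5.79 in ND against 5.66, 5.70 and 5.49 in HFD (-0.24, SE 0.08). Ict1, a peptidyl-tRNA hydrolase built into the large subunit, read 5.82, 5.84 and 5.73 in ND against 5.59, 5.62 and 5.61 in HFD (-0.19, SE 0.06). The smallest difference of the list was that of Dap3, a GTP-binding protein of the small subunit (-0.13, SE 0.07). Oxa1l, the insertase of the inner membrane that receives the nascent chain, stood at -0.08 (SE 0.06).

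Factors that build or modify the mitoribosome had a median of -0.10, with 19 of 21 genes lower and 4 of them at the unadjusted threshold. Mpv17l2, a membrane protein that takes part in assembly, was the lowest, at 1.43, 1.75 and 1.62 in ND against 1.27, 1.35 and 1.37 in HFD (-0.27, SE 0.10). Mrm1, a methyltransferase of the large ribosomal RNA, had the highest difference (0.15, SE 0.09). Eral1, a chaperone of the small ribosomal RNA, and Tfb1m, which methylates that RNA, each differed by -0.18 (SE 0.07).

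Translation factors had a median of -0.09, with 12 of 13 genes lower and 2 of them at the unadjusted threshold. Taco1, needed for translation of the COX1 messenger, read 0.51, 0.39 and 0.44 in ND against 0.25, 0.14 and 0.07 in HFD (-0.29, SE 0.08). Mtfmt, which formylates the initiator methionyl-tRNA, read 1.74, 1.74 and 1.73 in ND against 1.52, 1.49 and 1.53 in HFD (-0.23, SE 0.06). Both had smaller unadjusted limma p-values (0.00996 and 0.00949) than any mitoribosomal member, and neither passed the adjustment. Mtrf1l, a release factor, had the highest difference, 0.00 (SE 0.08).

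The list of mitochondrial aminoacyl-tRNA synthetases also held Qrsl1, Pet112l and Gatc, which encode subunits of the glutamyl-tRNA amidotransferase and not synthetases. On this list 19 of 19 genes were lower with a median of -0.11, and 4 of them at the unadjusted threshold. Pars2, the prolyl enzyme, read 1.46, 1.47 and 1.51 in ND against 1.24, 1.16 and 1.27 in HFD (-0.26, SE 0.07), and Ears2, the glutamyl enzyme, differed by -0.01 (SE 0.11). Genes for mitochondrial transcription and messenger stability were lower in 11 of 11 with a median of -0.09, and in 3 at the unadjusted threshold. Mterfd3, of the mitochondrial termination factor family, had levels of 3.52, 3.48 and 3.31 in ND against 3.20, 3.09 and 2.96 in HFD (-0.35, SE 0.10). At the other end, Mtpap, the poly(A) polymerase, differed by -0.00 (SE 0.07), and Tfam, which packages and transcribes the mitochondrial genome, by -0.01 (SE 0.07).

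The remaining lists had medians closer to 0 or above it. Among 9 regulators of genes for mitochondrial proteins, 3 were lower and the median was 0.08. Ppargc1b, a transcriptional coactivator of such genes, read -1.01, -0.85 and -0.52 in ND against -0.21, -0.29 and -0.06 in HFD (0.60, SE 0.14, limma unadjusted p = 0.00544, Benjamini-Hochberg adjusted p = 0.249), higher in every HFD heart than in any ND heart. Myc, a growth regulator, had the highest difference of the list (0.66, SE 0.33), largely through HFD 2, and Esrra, an orphan nuclear receptor, the lowest (-0.08, SE 0.08). The factors whose motifs were searched had levels that differed by 0.12 (SE 0.07) for Gabpa, 0.08 (SE 0.09) for Nrf1 and 0.08 (SE 0.11) for Yy1. Of the 7 messengers of the mitochondrial genome that were tested, 5 were lower with a median of -0.06. ND6, on the light strand, had levels of -1.34, -1.05 and -1.26 in ND against -1.63, -1.63 and -1.51 in HFD (-0.37, SE 0.10), and ND5 had the highest difference (0.05, SE 0.11).

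Cytosolic ribosomal proteins make up the other ribosome of the cell. Their list was drawn by gene name and also took in Rps19bp1 and Rpl7l1, which are not established proteins of that ribosome. Of its 86 genes tested, 53 were lower with a median of -0.01, and 0 reached the unadjusted threshold in either direction. They ran from -0.14 (SE 0.10) for Rpl3l, the form found in heart and skeletal muscle, to 0.23 (SE 0.14) for Rpl38. In all the lists of this and the preceding paragraphs, 0 genes passed the Benjamini-Hochberg adjustment in limma.

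**Figure D4:**
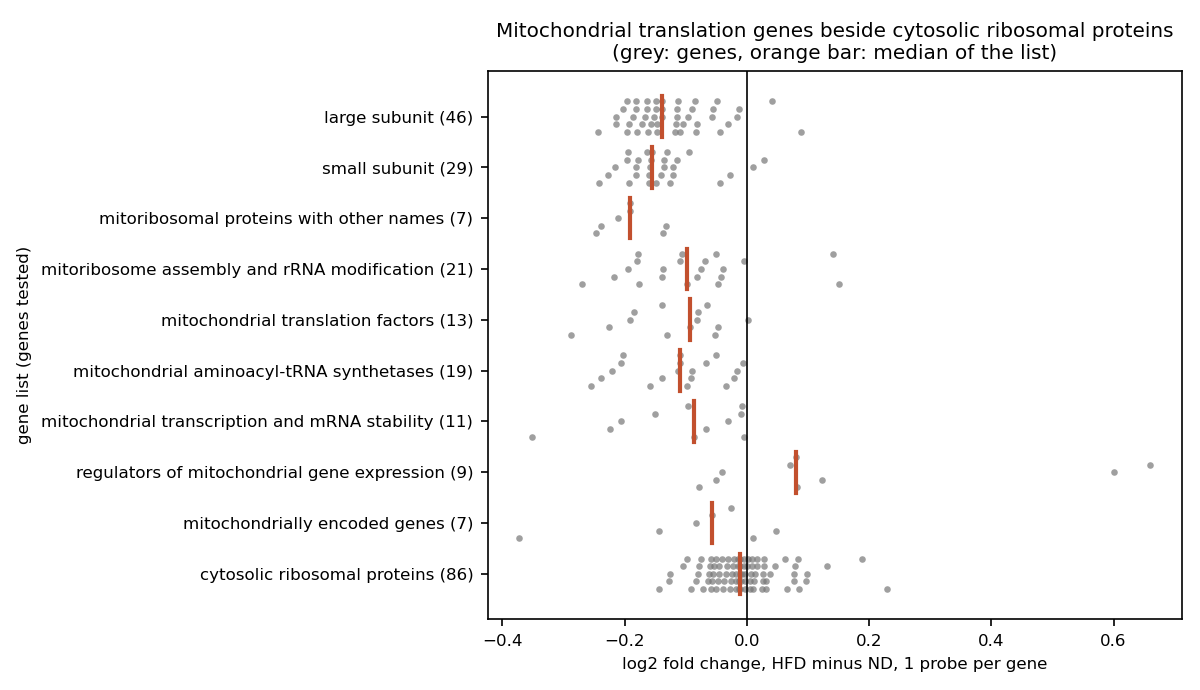
Difference of each gene between the diets (grey points, log2 fold change of HFD minus ND, 1 probe per gene) in the mitoribosomal subunits, the other lists of mitochondrial gene expression and the cytosolic ribosomal proteins, with the number of genes tested in parentheses and the median as an orange bar. The medians of the mitoribosomal lists lie between -0.14 and -0.19, those of the assembly, factor, synthetase and transcription lists between -0.09 and -0.11, that of the regulators at 0.08 and that of the cytosolic ribosomal proteins at -0.01.

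Promoter windows were found for 67 of the 76 genes, and 44 of these (65.7%) held at least 1 of the motif cores spelled out above, against 25.5% of the 17492 protein-coding genes in the same table. ETS matches stood in 24 genes (35.8%, against 12.9%), NRF1 matches in 19 (28.4%, against 11%) and YY1 matches in 13 (19.4%, against 6.05%). Any motif was held by 24 of 41 genes of the large and 20 of 26 genes of the small subunit. Among the named genes lower in HFD, the windows of Mrpl55, Mrpl42, Mrpl12, Mrpl30, Mrpl41, Mrps15 and Mrps25 held no match. Those of Mrpl11, Mrpl34, Mrps27, Mrps5, Mrps22, Mrps30, Mrps17 and Mrps7 held at least 1. Taking for each gene the window with most CpG dinucleotides, the members held a median of 21 and protein-coding genes 15. The NRF1 and YY1 cores can share 1 letter, and a match describes only the letters of the window. The start of Mrps11, whose window is printed above, lies 42 bases from that of Mrpl46 on the opposite strand, and their windows share 141 bases. The YY1 match of Mrps11 lies outside the shared bases, and the Mrpl46 window held no match. Mrpl46, a mitochondria-specific protein of the large subunit, read 3.46, 3.47 and 3.25 in ND against 3.26, 3.21 and 3.16 in HFD (-0.18, SE 0.09), close to the -0.16 (SE 0.06) of Mrps11, although HFD 1 reached above ND 3 for Mrpl46 and no hearts overlapped for Mrps11.

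The members are bright probes, and brightness moved with the difference over all probes. In the brightest eighth of the probes tested, which held 56 members, the median over all probes was -0.04 and 66.9% were lower, whereas the 56 members had a median of -0.15. In the next eighth the median was -0.02 over all probes and -0.14 over the 23 members. At an unadjusted limma p below 0.05, 15 of the 56 members of the brightest eighth were lower, where 8.84% of all its probes were. In the next eighth 4 of the 23 members were, where 7.19% of all its probes were. Cyclic loess normalization, which follows brightness and was added after the data were seen, gave medians of -0.10 for the large and -0.11 for the small subunit, and counts of 3 and 8 at the unadjusted threshold. With 6.47% of all probes lower in that fit, the large subunit (5.0%) lay under the background and the small subunit (20.5%) above it. Quantile normalization gave -0.11 for either subunit, with counts of 4 (6.67%) and 8 (20.5%) beside a background of 6.21%, and the authors' log2 table gave the same counts beside 6.39%. Without a filter on dim probes, 2 of 62 large (3.23%) and 3 of 39 small subunit probes (7.69%) were lower, where 3.01% of all probes were. The large subunit share was thus close to the background in these last 3 settings. The methods' t-test and a fit with an intensity trend and robust variances gave higher counts, 22 and 17 for the t-test (background 6.95%) and 22 and 18 for the trend (background 7.55%), as did array weights with 26 and 20 (background 9.57%). With the replicate number as a block the counts were 1 and 3 (1.67% and 7.69%, background 5.89%). In the 19 other settings tried, the medians of both subunits were negative, 0 members were higher at the unadjusted threshold, and 0 members passed the adjustment.

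**Figure D5:**
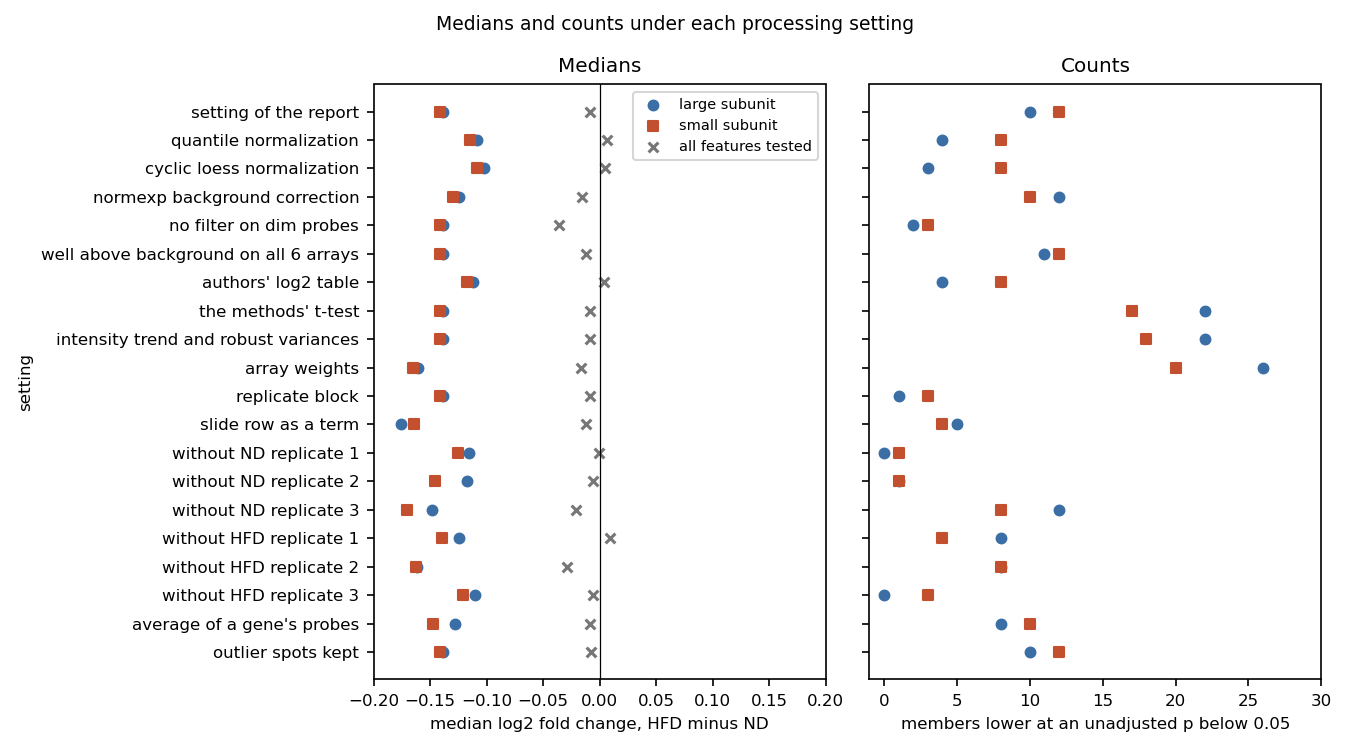
Median difference of the large subunit (blue circles), the small subunit (orange squares) and all features tested (grey crosses) on the left, as log2 fold change of HFD minus ND, and the number of members lower at an unadjusted p below 0.05 on the right, for the setting of the report and the 19 others. The medians of both subunits stay between -0.10 and -0.18 while those of all features stay near 0, and the counts run from 0 to 26 for the large and from 1 to 20 for the small subunit.

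In bulk tissue, fewer cells of a type and less RNA per cell cannot be told apart. All 8 cardiomyocyte markers were tested, and their summed level was 11.8 in each ND heart and between 11.6 and 11.9 in the HFD hearts. By sign 6 of the 8 were lower in HFD, with a median difference of -0.03. Their median deviation from the ND mean was -0.01, 0.01 and -0.01 in ND 1 to ND 3. In HFD 1 to HFD 3 it was -0.01, 0.07 and -0.19, so that HFD 3 was low for these markers as it was for both subunits. Erythroid markers moved with the diet. Their summed level was 9.28 to 9.64 in ND against 8.65 to 9.13 in HFD, with 6 of 7 tested genes lower, 5 of them at an unadjusted limma p below 0.05, and the defining marker Rhag not well above background on any array. White adipocyte markers (1.66 to 2.82 in ND, -1.44 to 2.86 in HFD, with Lep not well above background) and atrial markers (7.68 to 9.95 in ND, 5.96 to 10.2 in HFD) varied most between hearts, and both were lowest in HFD 2. Macrophage markers summed to 4.87 to 5.07 in ND against 4.58 to 4.90 in HFD, so that the diets overlapped narrowly. The summed levels of fibroblast, endothelial and skeletal muscle markers overlapped between the diets too. Single skeletal muscle markers did differ. Of the 4 tested, Ckm, the muscle creatine kinase that the heart also expresses (-0.27, SE 0.10), and Tnni2, the fast skeletal troponin I (-0.41, SE 0.15), were lower at an unadjusted limma p below 0.05 and did not overlap between the diets. Tnnt3 had the lowest difference of the 4 (-0.44) and Myl1 went the other way (0.10), and neither reached that threshold. The median over the 4 was -0.34, and their median deviation from the ND mean was -0.01, 0.01 and 0.01 in ND against -0.21, -0.59 and -0.27 in HFD. At the same threshold 1 of 6 fibroblast, 1 of 4 endothelial and 1 of 5 macrophage markers were lower, and 0 of 8 cardiomyocyte, 0 of 5 atrial and 0 of 5 white adipocyte markers. Over all 20571 genes with 1 probe each, 7.01% were lower at that threshold. The part of these cell types in the mitoribosomal differences was not tested.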

How the data were processed

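RNA from 3 ND and 3 HFD hearts was read on 6 Agilent 1-colour arrays. The deposited intensity was on a linear scale. The authors' Agilent Feature Extraction (version 10.7 per the labels) had subtracted background within each array, with no normalization between arrays stated. Deposited spot and local background intensity served only the normexp alternative. How the authors made their deposited log2 table of these arrays is not given in the sources used here. Each of its columns followed its own array, its values differed from a quantile normalization of the log2 intensities by a median of 0.00188, and its column medians were 4.56. It was used as an alternative.

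Control spots and 127 to 190 spots per array flagged as outliers were left out, which removed 0 member values, and spots of 1 probe were averaged. There were 0 saturated spots. The log2 intensity minus the 75th percentile of its array was compared between diets in limma 3.58.1 (lmFit, eBayes, two-sided) in R 4.3.3 for the 27590 probes that the software rated well above background in all hearts of either diet and that had 2 or more values per diet, with Benjamini-Hochberg adjustment over all of them. Per array, 49.2% to 52.9% of probes were so rated, the spike-in slope was 0.896 in HFD 2 and up to 0.958 elsewhere, and Pearson's r within a diet was 0.990 to 0.995. The number of arrays limits the precision. All arrays lay on 1 slide.

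The members and gene lists were chosen with earlier results of these data known. Within each subunit, the 8 genes with the smallest p and the 3 highest and 3 lowest by log2 fold change were named by their brightest tested probe, with every other tested probe of a named gene, and of each other list the genes at either end. Members beyond this rule were named for their role or their probe after their values were seen. Probe positions (mm9) and gene names come from the array's annotation. The sequence of 1 intron-spanning probe among the named genes is not reported here. Promoters are RefSeq's on GRCm38.p6. Python 3.11.15 with pandas 2.3.3, numpy 2.4.6 and matplotlib 3.10.9 searched motifs and drew figures, and data.table (version 1.17.8), jsonlite 2.0.0 and statmod 1.5.0 served the fits in R. The code was tested on simulated data. Alternatives were quantile and cyclic loess normalization, normexp background correction (offset 50), no filter on dim probes, a filter requiring all 6 arrays, the authors' table, the methods' t-test, array weights, robust variances with a trend on intensity, a block for the replicate number, a term for the slide row, the average of a gene's probes, outlier spots kept, and each heart left out in turn with the probes tested kept.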

Additional observations from a re-analysis of the deposited data

How the results depend on the processing

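Under 19 other settings, the median differences of the large and small subunit stayed negative and moved by less than the spread between hearts, and 0 members passed the Benjamini-Hochberg adjustment in limma or in the methods' t-test. The counts of members lower at an unadjusted p below 0.05, 10 for the large and 12 for the small subunit, moved more. For the large subunit they were 26 with array weights, 22 with an intensity trend and robust variances, 22 with the methods' t-test, 5 with the slide row as a term, 4 with quantile normalization, 4 in the authors' log2 table, 3 with cyclic loess and 2 without a filter on dim probes. For the small subunit they were 20 with array weights, 4 with the slide row and 3 without a filter. Leaving out 1 heart gave 0 to 12 for the large and 1 to 8 for the small subunit. Of the 24 named genes, 17 were lower at that threshold, against 11 with quantile normalization, 11 in the authors' table, 10 with cyclic loess, 4 without a filter, 5 with the slide row, and 1 to 11 when 1 heart was left out. The named genes were picked by their p and difference in the setting of the report, so counts among them are not independent of that choice. The share of all probes lower at that threshold itself ran from 3.01% without a filter to 9.57% with array weights. The large subunit share was under it with cyclic loess (5.0% against 6.47%), with the replicate block (1.67% against 5.89%), and without ND 1, ND 2 or HFD 3, and the small subunit share was under it without ND 1 or ND 2. The causes were not tested. Over all probes tested, 4 passed the adjustment, against 81 with a trend and robust variances, 40 with normexp, 10 with array weights, 8 in the methods' t-test, 2 in the authors' table, 1 with a gene's probes averaged, 0 without a filter, 0 with the slide row, and 0 to 2 without 1 heart. At an unadjusted p below 0.05 there were 3275 probes, 2136 with the slide row, and 2156 to 3490 without 1 heart.

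The labels do not say whether equally numbered samples were paired. Their deviations from the diet means correlated by -0.15, 0.15 and 0.19, which with 3 arrays per diet cannot settle the question. With the replicate number as a block, 1 large and 3 small subunit probes and 3 named genes were lower at the unadjusted threshold, where 5.89% of all probes were, and 0 of all probes passed the adjustment.

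Of 456 values of the named genes under other settings, 434 kept their sign and 22 turned it, all in 5 genes near 0, while 18 of the 24 genes were lower throughout. Mrpl28 turned to -0.019 with the slide row and ran from -0.0069 (without HFD 2) to 0.14 when 1 heart was left out. Mrpl54 turned to 0.023 in the authors' table, 0.027 with cyclic loess, 0.024 with quantile normalization and 0.0030 with the slide row, and ran from -0.072 to 0.017 (without ND 1, positive also without ND 2) with 1 heart left out. Mrps10 turned to -0.055 with array weights and -0.11 with the slide row, and ran from -0.064 (without HFD 2, negative also without ND 3) to 0.068. Mrps28 turned to 0.0019 in the authors' table, 0.018 with cyclic loess, 0.020 with normexp and 0.0039 with quantile normalization, and ran from -0.080 to 0.029 (without ND 1, positive also without HFD 1). Mrps6 turned to -0.0085 with array weights and -0.11 with the slide row, and ran from -0.027 (without HFD 1, negative also without ND 2) to 0.096.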
